A study of Mus musculus with 8 samples.

Results

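The genes of retinoid binding and retinoid receptors were described through 9 members, Rara, Rarb, Rarg, Rxra, Rxrb, Crabp2, Stra6, Dhrs3 and Rdh10, out of 16341 genes counted. They form a list of retinoic acid receptors, binding proteins and retinol enzymes that was matched by symbol to Ensembl identifiers, and no measured value entered the match. All 9 were counted, 8 passed the filter on low counts, and Rarb did not.

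4T1, a mouse mammary carcinoma line, was separated with magnetic columns into cells carrying the surface protein SCA1 (4T1-Sca1+) and cells without it (4T1-Sca1-), and RNA of each fraction was sequenced in 4 libraries numbered 1 to 4. Both fractions were gated CD45-negative and neither carries a treatment, an engineered allele or an age in the labels. They are fractions of 1 line rather than clones. The labels give the parental line as their source, and the study too describes the sequenced fractions as taken from that line. The protocol alone speaks of tumor, a difference that the sources do not explain. Nothing states that the libraries came from separate sorts, so the p-values below measure only the spread between these libraries.

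Retinol enters cells through the membrane receptor STRA6, is oxidized to retinaldehyde by retinol dehydrogenases such as RDH10, and is oxidized further to retinoic acid by the ALDH1A enzymes. DHRS3 reduces retinaldehyde back to retinol, CRABP2 carries retinoic acid to the nucleus, and CYP26 enzymes break it down. The retinoic acid receptors (RAR) pair with retinoid X receptors (RXR) on DNA at direct repeats of a short half-site, and Rarb, Cyp26a1, Stra6 and Dhrs3 are known in many cells as transcripts that retinoic acid induces.

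The sequences below show such a repeat and 2 upstream regions in which none was found. The windows searched ran from 250 bases before to 50 bases after RefSeq gene starts (GRCm38.p6), and the half-site searched was AGGTCA or one of its variants GGGTCA and AGTTCA as well as GGTTCA, on both strands, in direct repeats spaced by 1, 2 or 5 bases. Repeats of different spacing can share a half-site. Over 32851 windows, a repeat spaced by 5 bases was found in 0.0974%, by 1 base in 0.222% and by 2 bases in 0.268%. At least 1 half-site was found in 43.7%. Of the members, 7 had windows, 18 in all, while Crabp2 and Rdh10 had none. Of these 18 windows, 1 held a repeat and 6, that one included, held at least 1 half-site. The 1 window with a repeat was that of Rarb, whose half-sites are in capitals in the first line (chr14:16575507-16575535, minus strand, GRCm38.p6). In GENCODE M21, the first exon of another Rarb transcript covers this stretch. The same spacing was found on the opposite strand upstream of Cyp26a1, a retinoic acid hydroxylase that is no member (chr19:37697770-37697798, printed on the plus strand). For Stra6 and Dhrs3, the members with the largest differences, the 250 bases before 1 start are printed in full (Stra6 chr9:58128838-58129087, Dhrs3 chr4:144892577-144892826, both plus strand). They hold no half-site of this set, so they carry no capitals. A match is a description of letters and not a bound site.
Rarb: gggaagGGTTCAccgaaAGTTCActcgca
Cyp26a1: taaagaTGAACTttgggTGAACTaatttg
Stra6: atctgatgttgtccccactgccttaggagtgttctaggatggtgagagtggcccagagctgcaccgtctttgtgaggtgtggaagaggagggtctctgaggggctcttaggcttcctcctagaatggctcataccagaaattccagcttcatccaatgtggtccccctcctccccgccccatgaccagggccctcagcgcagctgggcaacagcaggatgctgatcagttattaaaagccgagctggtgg
Dhrs3: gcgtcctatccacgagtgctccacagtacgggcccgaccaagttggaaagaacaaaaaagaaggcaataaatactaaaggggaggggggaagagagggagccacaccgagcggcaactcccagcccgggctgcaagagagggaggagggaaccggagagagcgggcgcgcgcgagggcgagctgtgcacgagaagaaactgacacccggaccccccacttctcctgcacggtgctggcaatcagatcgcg

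Total counts ran from 13561804 to 16968215 per library. Ly6a, which encodes SCA1, lay between 145 and 193 normalized counts (counts divided by 1 size factor per library) in 4T1-Sca1+ and between 0 and 4.11 in 4T1-Sca1-, so the labels and the marker went the same way. Epithelial markers (Epcam, Cdh1 and keratins) summed to 54180 to 59100 normalized counts in 4T1-Sca1+ and 53740 to 57960 in 4T1-Sca1-, and of the 7 tested 2 were higher and 3 lower. Of 18 leukocyte markers, 13 were counted and 9 of these stayed at 10 counts or fewer in every library. Among these 9, Ptprc, which encodes CD45, had 10 counts over the 4T1-Sca1+ libraries against 2, and did not overlap. Fcer1g had 10 against 2 and Itgam 10 against 11, and both overlapped. Lyz2 and Cd4 had 0 against 1 each. The leukocyte markers nevertheless summed to 413 to 477 in 4T1-Sca1+ against 229 to 271 in 4T1-Sca1-. This sum was carried by Cd68, Cd74, Csf1r and S100a8, and all 4 that were tested were higher. Fibroblast markers summed to 637 to 674 against 395 to 468, mostly Pdgfra, and 2 of the 3 tested were higher. Of those not tested, Dcn (49 counts over the 4T1-Sca1+ libraries against 4), Pdgfrb (27 against 1) and Acta2 (11 against 0) did not overlap. Col1a2 had 19 against 18 counts and Fap 4 against 11. Of endothelial markers, 1 (Tie1) was tested and was lower, with sums of 34.7 to 43.9 against 43.4 to 66.2. Of those not tested, Pecam1 went the other way, with 21 counts over the 4T1-Sca1+ libraries against 4, and did not overlap. Esam had 24 against 32 and Cdh5 3 against 7, and both overlapped. The leukocyte and fibroblast sums were thus higher in 4T1-Sca1+, as were the tested members other than Rdh10. The part of other cells in the retinoid differences was not tested.

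Of the 11717 genes tested, 7206 (61.5%) differed between the fractions at an adjusted p under 0.05 by edgeR's quasi-likelihood test with Benjamini-Hochberg adjustment, 31.3% being higher and 30.2% lower in 4T1-Sca1+. Among the 8 tested members, 7 were higher and 1, Rdh10, was lower. The groups did not overlap for 5 members (Stra6, Dhrs3, Crabp2, Rxra and Rdh10), against 54.7% of all tested genes. The median log2 fold change of the tested members, 4T1-Sca1+ over 4T1-Sca1-, was 0.48, and that of all tested genes was 0.01. Stra6 and Dhrs3 were at least 4-fold higher, as were 1.41% of tested genes, and no other member reached 2-fold, which 5.22% of tested genes did. Crabp2 and Rxra were also at least 1.5-fold higher, as were 11.7% of tested genes. Stra6 and Dhrs3 belong to the signature of SCA1-positive genes that the study picked on these same libraries, so their direction is no independent evidence.

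**Figure D1:**
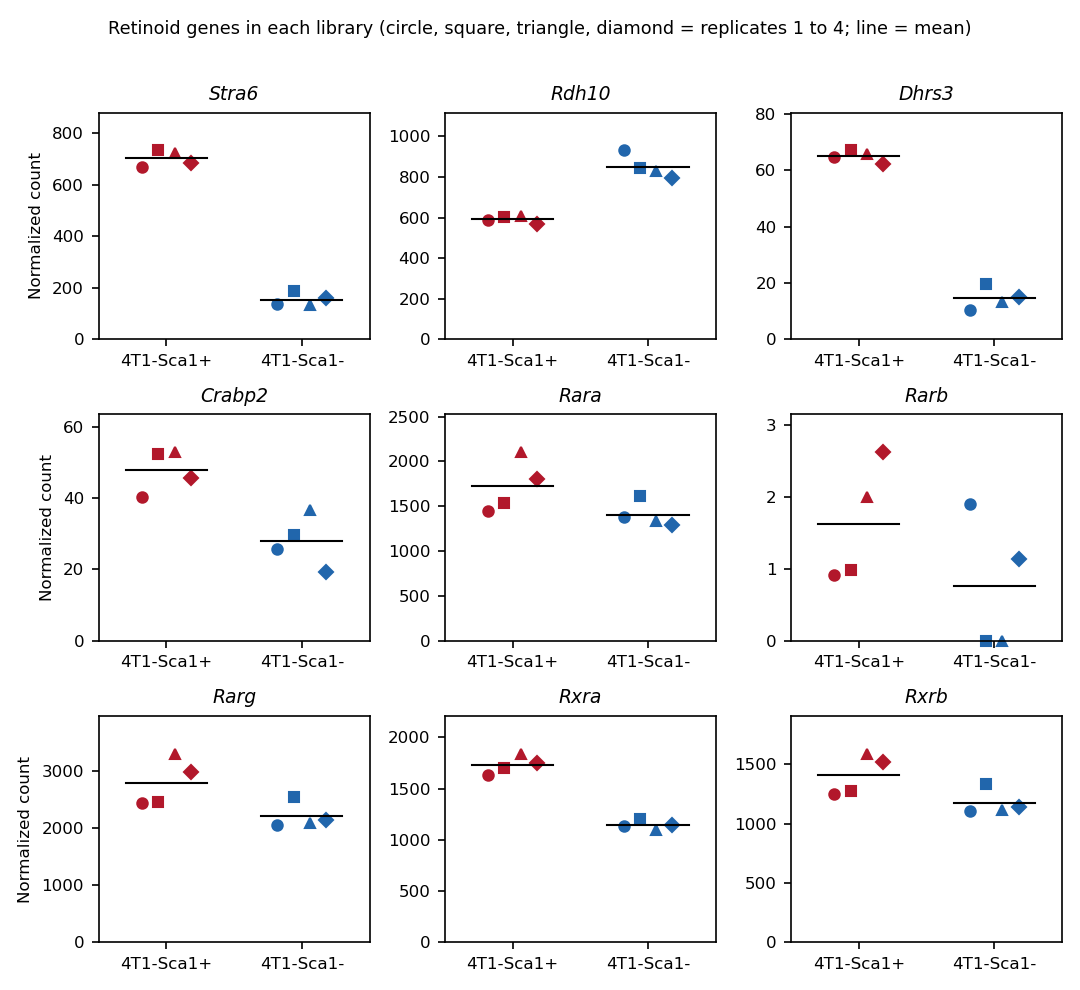
Normalized count (vertical axes, from 0) of each member in each library, red for 4T1-Sca1+ and blue for 4T1-Sca1-, with symbols for replicates 1 to 4 and a line at the mean. Stra6 and Dhrs3 separate most widely, Rdh10 is the member lower in 4T1-Sca1+, and Rara, Rarg and Rxrb overlap between the fractions.

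The uptake receptor and the retinaldehyde reductase stood far apart between the fractions. Stra6 (ENSMUSG00000032327; GRCm38 chr9:58063788-58153996, plus strand) had 669, 733, 724 and 684 normalized counts in 4T1-Sca1+ replicates 1 to 4. In 4T1-Sca1- replicates 1 to 4 it had 138, 188, 131 and 159. Every 4T1-Sca1+ library lay above every 4T1-Sca1- library, and 4T1-Sca1- replicate 2 was the highest of its group. The means were 702 ± 30.9 and 154 ± 25.5 (SD, n = 4), which gave a log2 fold change of 2.20 ± 0.09 (SE) and an edgeR adjusted p of 6.45e-13. In sorted bulk samples, a higher share of expressing cells and more RNA per cell cannot be told apart.

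Dhrs3 (ENSMUSG00000066026; GRCm38 chr4:144892827-144928209, plus strand) was less abundant. Its normalized counts were 64.9, 67.1, 65.8 and 62.1 in 4T1-Sca1+ and 10.5, 19.5, 13.4 and 14.8 in 4T1-Sca1-, in the order of replicates 1 to 4. The 4T1-Sca1+ libraries lay within a coefficient of variation of 3.22%, and the groups did not overlap. Its log2 fold change came to 2.17 ± 0.18 (edgeR adjusted p 2.10e-08). Both Stra6 and Dhrs3 kept their call in all 19 alternative fits, with log2 fold changes between 2.08 and 2.31 for Stra6 and between 2.01 and 2.34 for Dhrs3.

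Rdh10, the dehydrogenase that makes retinaldehyde from retinol, went the other way. Rdh10 (ENSMUSG00000025921; GRCm38 chr1:16105774-16133734, plus strand) had 589, 602, 609 and 566 normalized counts in 4T1-Sca1+ replicates 1 to 4 and 931, 847, 832 and 796 in 4T1-Sca1- replicates 1 to 4. The groups did not overlap. Its log2 fold change came to -0.51 ± 0.06 (edgeR adjusted p 7.07e-07) and stayed between -0.55 and -0.46 in 19 alternative fits. Per kb of exon, the ratio of Dhrs3 to Rdh10 ranged from 0.154 to 0.158 in 4T1-Sca1+ and from 0.016 to 0.0327 in 4T1-Sca1-. The transcript of the enzyme that returns retinaldehyde to retinol was thus below that of the enzyme that forms it in every library, by less in 4T1-Sca1+.

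Crabp2 (ENSMUSG00000004885; GRCm38 chr3:87948666-87953376, plus strand), the retinoic acid carrier, was a low transcript in both fractions. It had 40.2, 52.3, 52.9 and 45.5 normalized counts in 4T1-Sca1+ and 25.8, 29.8, 36.7 and 19.4 in 4T1-Sca1- replicates 1 to 4. The lowest 4T1-Sca1+ library lay just above the highest 4T1-Sca1- library, replicate 3. Its log2 fold change came to 0.78 ± 0.19 (edgeR adjusted p 0.00174). Fabp5, a fatty acid binding protein that also carries retinoic acid, was lower instead, with 918 ± 97.4 against 1259 ± 56.6 normalized counts (log2 fold change -0.44 ± 0.07). The ratio of Crabp2 to Fabp5 per kb of exon was 0.111 to 0.184 in 4T1-Sca1+ and 0.0407 to 0.0748 in 4T1-Sca1-, so Fabp5 was the higher of the pair in every library.

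Among the receptors, Rxra separated the fractions and the other 3 tested receptors overlapped. Rxra (ENSMUSG00000015846; GRCm38 chr2:27676440-27762957, plus strand) had 1638, 1705, 1842 and 1753 normalized counts in 4T1-Sca1+ and 1132, 1205, 1101 and 1149 in 4T1-Sca1- replicates 1 to 4. The groups stood well apart, with coefficients of variation of 4.96% and 3.82%. Its log2 fold change came to 0.61 ± 0.05 (edgeR adjusted p 1.15e-08). Rxra made up 45.7% to 49.4% of RXR transcripts (Rxra and Rxrb, per kb of exon) in 4T1-Sca1+ and 39.7% to 42.6% in 4T1-Sca1-. These shares did not overlap, and Rxrb made up the rest in each.

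Rarg (ENSMUSG00000001288; GRCm38 chr15:102234938-102257517, minus strand) had 2435, 2460, 3304 and 2981 normalized counts in 4T1-Sca1+ and 2048, 2549, 2088 and 2150 in 4T1-Sca1- replicates 1 to 4. 4T1-Sca1- replicate 2 lay above 4T1-Sca1+ replicates 1 and 2. Its log2 fold change came to 0.35 ± 0.09 (edgeR adjusted p 0.00174). Rara (ENSMUSG00000037992; GRCm38 chr11:98927818-98974942, plus strand) had 1445, 1535, 2105 and 1806 against 1376, 1614, 1341 and 1293. Here too 4T1-Sca1- replicate 2 exceeded 4T1-Sca1+ replicates 1 and 2, and the log2 fold change came to 0.30 ± 0.09 (adjusted p 0.00848). Rxrb (ENSMUSG00000039656; GRCm38 chr17:34031812-34038399, plus strand) had 1246, 1271, 1588 and 1518 against 1109, 1331, 1111 and 1139, with the same libraries overlapping, and its log2 fold change came to 0.27 ± 0.08 (adjusted p 0.00476). Rarg made up 61.6% to 63.3% of RAR transcripts in 4T1-Sca1+ and 60.4% to 63.0% in 4T1-Sca1-, ranges that overlapped.

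Transcripts rich in G and C were shifted in some libraries, and these receptors are among them. The transcripts of Rara, Rarg and Rxrb are 59.2%, 58.8% and 61.4% GC, all among the 2904 tested genes of highest GC content (above 54.6%), which also hold Rxra (57.0%) and Stra6 (56.3%). In 4T1-Sca1+ replicate 3, the median gene of that GC-rich set deviated from its group mean by 0.11 on the log2 scale, and Rara, Rarg and Rxrb deviated by 0.30, 0.25 and 0.18. In 4T1-Sca1- replicate 2 that median was 0.08, and the same 3 genes deviated by 0.20, 0.21 and 0.18. Between the fractions, the GC-rich set had a median log2 fold change of 0.18 and the 2904 genes of lowest GC content one of -0.10. The GC correction was fitted per library on deviations from the mean of all 8 libraries. It therefore also removes a GC trend between the fractions, and not only shifts of single libraries. With offsets corrected for GC in each library, the log2 fold change of Rara was 0.10 (adjusted p 0.134) and that of Rxrb was 0.00 (adjusted p 0.955), so both calls ended. Rarg kept its call at 0.16 (adjusted p 0.00922) and Rxra at 0.46, while Stra6 stood at 2.08. Without 4T1-Sca1+ replicate 3 and 4T1-Sca1- replicate 2, an alternative chosen after seeing the data, the log2 fold changes were 0.26 for Rara, 0.27 for Rxrb and 0.33 for Rarg, all called. Leaving out 4T1-Sca1+ replicate 3 alone lowered Rara to 0.19, and the DESeq2 Wald test gave Rara an adjusted p of 0.0775. The part of GC content in these differences beyond those values was not tested.

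**Figure D2:**
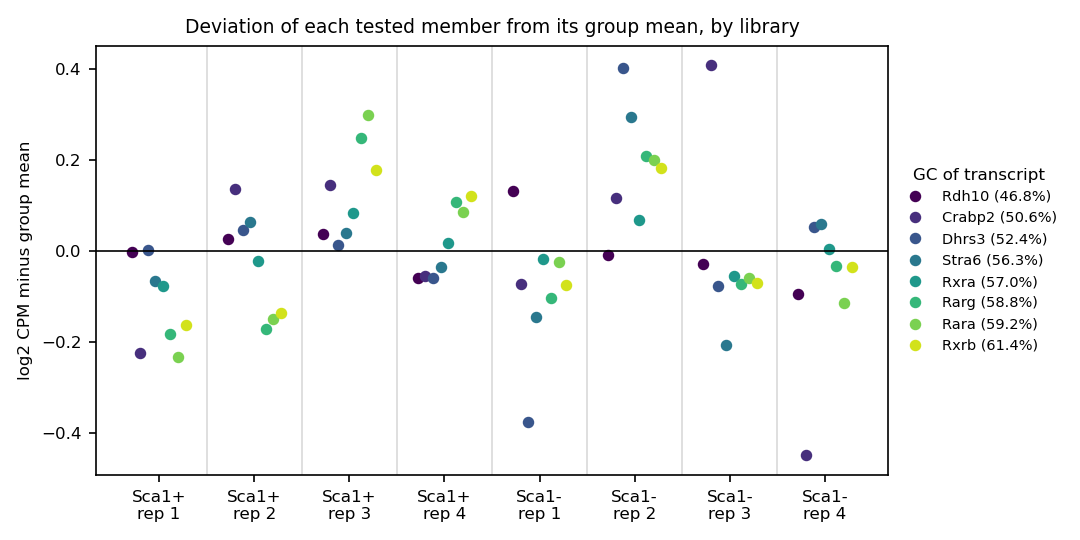
Deviation of log2 CPM from the group mean (vertical axis) for the 8 tested members in each library, coloured by the GC content of the transcript. Rara, Rarg and Rxrb lie at 0.18 to 0.30 in 4T1-Sca1+ replicate 3 and at 0.18 to 0.21 in 4T1-Sca1- replicate 2.

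**Figure D3:**
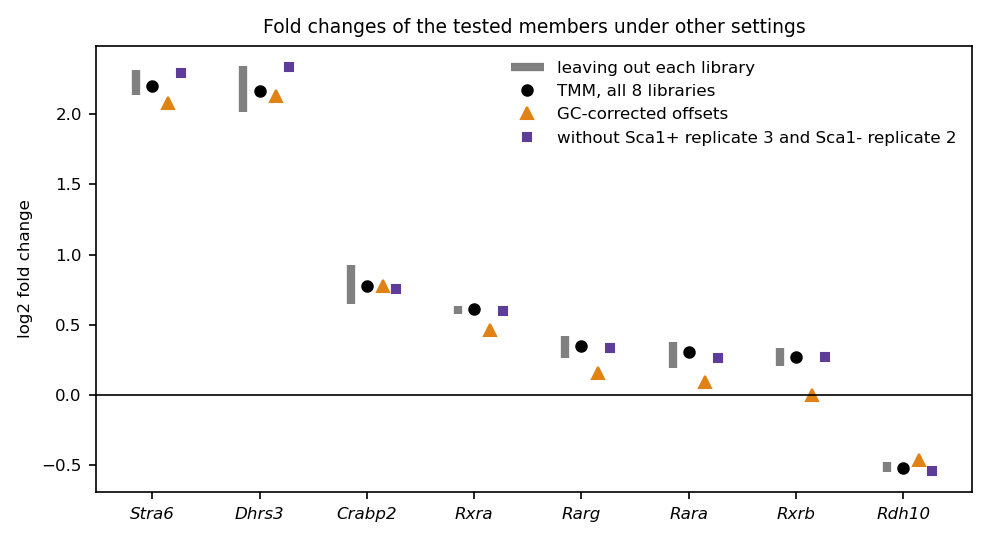
Log2 fold change (vertical axis) of the tested members in the fit of all 8 libraries (black), with GC-corrected offsets (orange), without the 2 libraries named (purple) and the range over leaving out each library (grey). Rxrb falls to 0.00 and Rara to 0.10 with GC-corrected offsets, while Dhrs3 stands at 2.13, Crabp2 at 0.78 and Rdh10 at -0.46.

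Rarb (ENSMUSG00000017491; GRCm38 chr14:16430839-16819156, minus strand), the receptor whose window holds the repeat printed above, was at the floor. It had 1, 1, 2 and 3 counts in 4T1-Sca1+ and 2, 0, 0 and 1 in 4T1-Sca1- replicates 1 to 4, which is too few for a difference to be detectable at this depth. Its exons overlap those of Top2b on the opposite strand over 1793 bases, and without strand information reads from there cannot be assigned to one of them. Cyp26a1, printed beside it, was at the floor as well, with at most 3 counts in every library.

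Levels were compared between genes only per kb of annotated exon. In 4T1-Sca1+ the order of mean level, in normalized counts per kb, was Rarg (656), Rara (395), Rxrb (354), Rxra (318), Rdh10 (142), Stra6 (121), Crabp2 (36.1), Dhrs3 (22.2) and Rarb (0.310). Rara and Rxrb, and Rxrb and Rxra, overlapped between libraries, and the other neighbours did not. In 4T1-Sca1- it was Rarg (518), Rara (322), Rxrb (295), Rxra (210.0), Rdh10 (205), Stra6 (26.4), Crabp2 (21.1), Dhrs3 (4.97) and Rarb (0.145). There the overlapping neighbours were Rara and Rxrb, Rxra and Rdh10, and Stra6 and Crabp2. The order of the names was thus the same in both fractions. With the longest transcript as the length, Rara and Rxrb changed places in both fractions, as did Rdh10 and Stra6 in 4T1-Sca1+ and Rxra and Rdh10 in 4T1-Sca1-.

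**Figure D4:**
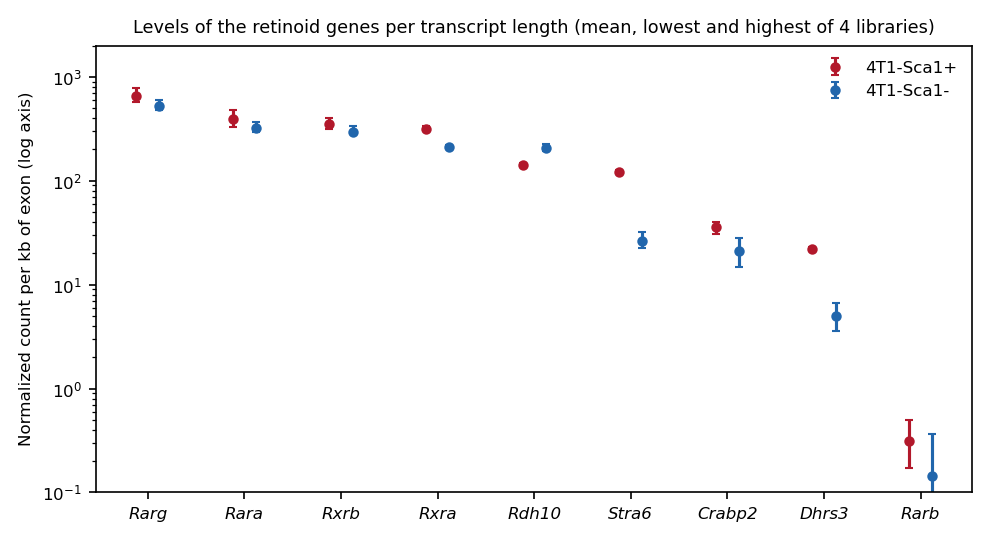
Level of each member in normalized counts per kb of exon (log axis), with the mean as a point and the lowest and highest of 4 libraries as a bar. Receptors other than Rarb lead in both fractions, and the bar of Rarb in 4T1-Sca1- runs down to 0 and leaves the axis.

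The rest of the pathway was described through 44 genes of retinoid supply and metabolism, of which 33 were counted, 11 were not analysed here and 19 were tested. Of these 19, 10 were higher in 4T1-Sca1+, 5 were lower and 4 did not pass, with a median log2 fold change of 0.29. Over all tested genes, 31.3% were higher and 30.2% lower. Cyp26b1, a retinoic acid hydroxylase, differed most, with 188, 210.0, 206 and 170 normalized counts in 4T1-Sca1+ and 26.7, 27.7, 36.7 and 37.7 in 4T1-Sca1- replicates 1 to 4. Its log2 fold change was 2.60 ± 0.13 (adjusted p 2.70e-11, edgeR), and it too is in the study's SCA1-positive signature. Its upstream window held no half-site, whereas Cyp26a1, whose window held a repeat, was at the floor.

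Aldh1a1, which makes retinoic acid, had 23.8 ± 5.56 against 12.3 ± 5.88 normalized counts with overlapping groups (log2 fold change 0.97 ± 0.30, adjusted p 0.00962). Aldh1a2 was at the floor, and Aldh1a3 was not analysed here. Among other dehydrogenases, Adh7 (1.29 ± 0.13), Dhrs9 (0.88 ± 0.10), Rdh14 (0.45 ± 0.12) and Dhrs7 (0.38 ± 0.08) were higher, and Rdh11 (-0.26 ± 0.08), Adh5 (-0.24 ± 0.05) and Akr1b8 (-0.19 ± 0.07) were lower. Rdh5 was higher by 0.32 ± 0.12, but its exons share 720 bases with Bloc1s1 on the same strand, and its call was lost in 8 of 19 alternative fits, among them those without 4T1-Sca1+ replicate 2 (0.27) or 3 (0.24) and without 4T1-Sca1- replicate 1 (0.25) or 2 (0.30). Cyp1b1 (1.31 ± 0.06), Dgat1 (0.62 ± 0.07), which esterifies retinol, and Scarb1 (0.17 ± 0.05) were higher, and Retsat (-0.29 ± 0.07), which saturates retinol, was lower. The call of Akr1b8 ended without 4T1-Sca1+ replicate 4 (-0.16) or 4T1-Sca1- replicate 3 (-0.12), and with library totals alone (-0.145). That of Scarb1 ended without 4T1-Sca1- replicate 1 (0.13) or 3 (0.14). Rbp2 (0.29 ± 0.13), Dhrs4 (0.05 ± 0.06), Rdh13 (0.00 ± 0.06) and Bco2 (-0.06 ± 0.27) did not pass. Rbp2 did pass without 4T1-Sca1+ replicate 3 (0.32) or 4T1-Sca1- replicate 1 (0.36). It also passed with library totals alone (0.33), upper-quartile scaling (0.32) and a minimum of 10 counts (0.30). Genes placed at the oxidation of retinol thus moved in both directions, Rdh10 being lower and Dhrs9 and Adh7 higher. So did those placed at the reduction of retinaldehyde, Rdh11 being lower and Dhrs3 and Rdh14 higher.

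**Figure D5:**
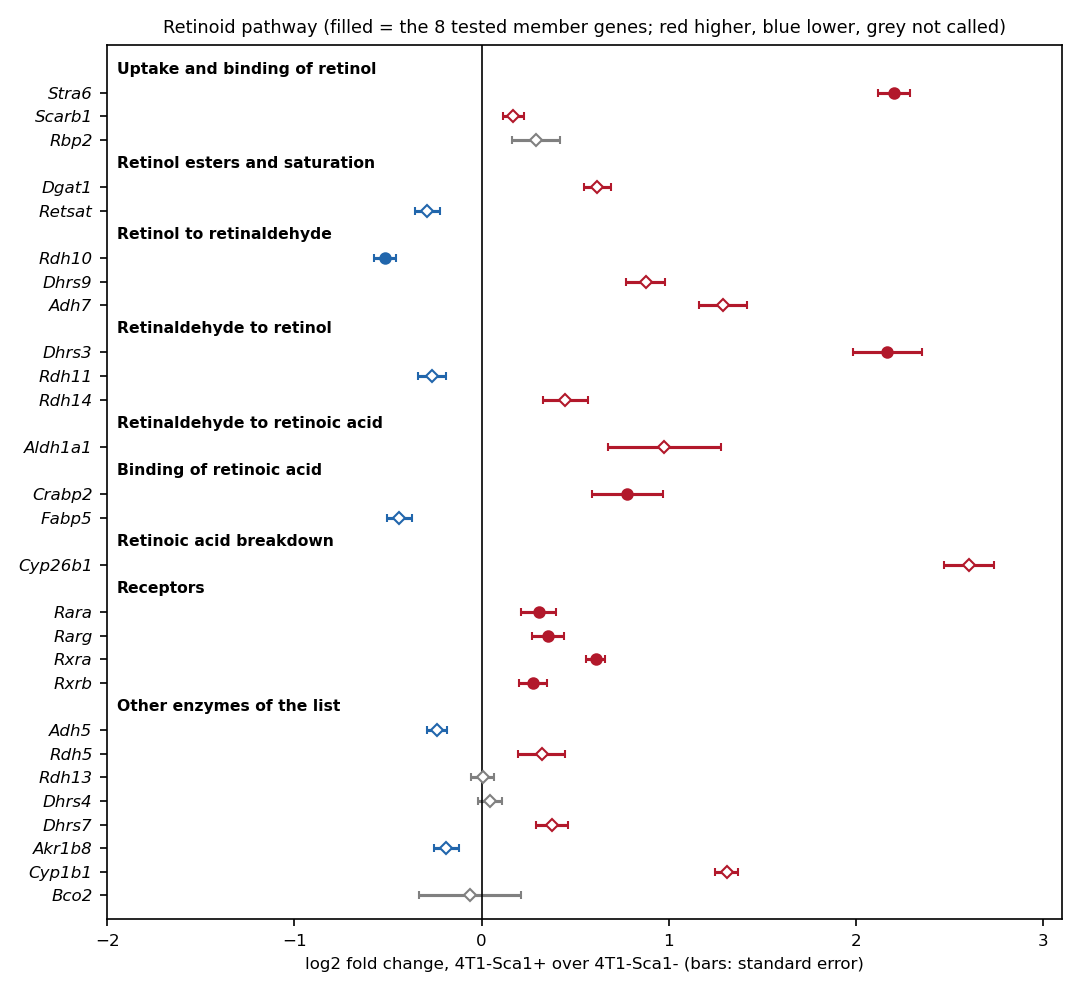
Log2 fold change, 4T1-Sca1+ over 4T1-Sca1-, with its standard error (horizontal axis) for the tested members (filled) and the tested genes of retinoid supply and metabolism (open), ordered by step, red for higher, blue for lower and grey for not called. Cyp26b1, Stra6 and Dhrs3 lie above 2, and Rdh10 and Fabp5 are the lowest.

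Of 33 genes known to respond to retinoic acid, 22 were counted and 20 tested. The list holds none of the members, so Stra6 and Dhrs3 are not in it. Of the tested targets, 11 were higher, 5 were lower and 4 did not pass, with a median of 0.28. Among all genes tested, 31.3% were higher and 30.2% lower. Cyp26b1, which also stands in the list above, led them, followed by Tgm2, a transglutaminase (1.09 ± 0.05), and the homeobox genes Hoxa4 (0.90 ± 0.27), Hoxa5 (0.64 ± 0.07) and Hoxa3 (0.61 ± 0.08). The exons of Hoxa3 and Tgm2, and of Bhlhe40 named next, overlap those of genes on the opposite strand. The lowest were Bhlhe40 (-0.71 ± 0.05), Btg2 (-0.60 ± 0.14), Foxa1 (-0.47 ± 0.12), Ets2 (-0.36 ± 0.04) and Krt7 (-0.20 ± 0.04). Called targets therefore lay on both sides, with more of them higher (11) than lower (5). A response to retinoic acid was not tested. Cyp26a1, like the member Rarb, was at the floor.

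The partners that RXR proteins bind besides RAR numbered 13, of which 11 were counted and 7 tested, with a median of 0.35. Of these, Vdr, the vitamin D receptor (1.04 ± 0.07), Thra, a thyroid hormone receptor (0.74 ± 0.09), Nr1h2 (0.58 ± 0.08) and Nr4a1 (0.35 ± 0.07) were higher, Nr4a2 was lower (-0.34 ± 0.08) and 2 did not pass. Thra, Nr1h2 and Nr4a1 are 59.8%, 60.6% and 57.0% GC, and with GC-corrected offsets they stood at 0.52, 0.34 and 0.20, all still called. Of 19 coregulators of nuclear receptors, 18 were tested, 3 were higher, 4 were lower and 11 did not pass, with a median of 0.01. The shares over all tested genes were 31.3% higher and 30.2% lower. Among the coregulators, 3 and 4 genes are named next. The higher coregulators were Nrip1 (0.30 ± 0.05), Ep300 (0.17 ± 0.04) and Sin3a (0.13 ± 0.05). The lower ones were Med1 (-0.24 ± 0.05), Hdac3 (-0.24 ± 0.05), Carm1 (-0.21 ± 0.04) and Crebbp (-0.13 ± 0.06). Carm1, 57.4% GC, stood at -0.36 with GC-corrected offsets. The call of Sin3a ended without 4T1-Sca1+ replicate 2 or 4 or without 4T1-Sca1- replicate 1 or 3 (0.11 to 0.12). That of Crebbp ended without any library other than 4T1-Sca1+ replicate 3 and 4T1-Sca1- replicate 4 (-0.15 to -0.11). It also ended with library totals alone (-0.09), upper-quartile scaling (-0.10), a minimum of 10 counts (-0.12) and a replicate block (-0.13). Crebbp thus kept its call in 9 of 19 alternative fits, and Sin3a in 14 of 19.

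The genes whose pattern over the 8 libraries was most like that of the leading members were described by Pearson's r of log2 CPM. For Stra6 they were Col6a1 (0.999), Tns4 (0.998) and Elmo2 (0.998), and 114 genes had an r of at least 0.99. For Dhrs3 they were Epn2 (0.999), Atp8b2 (0.997) and Gmip (0.996), and 43 genes reached 0.99. The 8 libraries fall into 2 groups that differ in most genes, so such values mainly restate the difference between the groups and are given without a p.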

How the data were processed

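RNA of 4 4T1-Sca1+ and 4 4T1-Sca1- libraries was analysed. The authors deposited counts per Ensembl gene and a second table of normalized signal, which equals these counts divided by DESeq2 size factors. The submitters' processing notes name GRCm38 (mm10), cutadapt 1.16 and STAR 2.5.3a, whereas the counting tool, annotation and strand setting are not given in the sources used here. The TruSeq RNA v2 kit named in the labels does not mark strand, and overlapping genes are uncertain to that extent. Besides Rarb, Rdh5 and Hoxa3, the named genes with shared exon bases on the opposite strand were Carm1 (1025), Csf1r (873) and Tgm2 (370). Thra (263), Sin3a (205) and Bhlhe40 (118) shared bases in this way too. On the same strand, Itgam shared 3450 bases and Pdgfra 30.

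Genes passing filterByExpr (11717) were tested in edgeR 4.0.16 (R 4.3.3) with TMM scaling and a two-sided quasi-likelihood test without covariates. Benjamini-Hochberg adjustment covered all tested genes, with calls at an adjusted p under 0.05. Standard errors were derived from the F statistic. Groups whose libraries each held no more than 3 counts were set as at the floor, a limit that covers counting error only. Log2 CPM used a prior count of 2. Total counts per library were 13561804 to 16968215, and the common biological coefficient of variation was 0.0541.

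Symbols, positions, lengths and GC content came from GENCODE M21, in which 16202 counted genes were found and 139 were not, and promoter windows from RefSeq GRCm38.p6. GC content was available for 11616 tested genes. GC-corrected offsets removed a lowess trend (span 0.3) per library, fitted on deviations from the mean over both fractions. The main test was also run on simulated counts. Few genes differed there and no GC trend was set, unlike in these data, so that run does not cover either feature.

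The members, the gene lists and the tests were chosen with earlier results of these data known. Members were named with all their values, retinoid supply and metabolism genes where tested, and from the lists of retinoic acid targets, coregulators and RXR partners up to 5 called genes with the highest and 5 with the lowest log2 fold change. The 3 genes most like each of the 2 members with the largest differences were also named. Cyp26a1 and Aldh1a2, which were not tested, were named after their values were seen. Some genes of the lists are not reported here and were left out of their counts.

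Alternatives were other scalings (DESeq2 size factors, library totals, upper quartile), every counted gene kept, a minimum of 10 counts per library, the DESeq2 1.42.0 Wald test, limma-voom (limma 3.58.1), a replicate block, limma on the deposited signal as log2(value + 1), GC-corrected offsets, stricter calls, the longest transcript as length, and leaving out libraries. Equal replicate numbers were not taken as pairs, since none of the labels says what they mark.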

Additional observations from a re-analysis of the deposited data

Results flagged for a closer look

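In 3 of 96 groups of 4 libraries examined, 1 library stood apart by Dixon's ratio, where chance gives about 4.8. The groups covered the tested members, the tested supply and metabolism genes and the called genes named from the other lists. Rxrb had 1331 normalized counts in 4T1-Sca1- replicate 2, against 1109 to 1139 in the other libraries of that group. This is a library in which GC-rich transcripts lay high, and Rxrb is the member with the highest GC content. Adh7, an alcohol dehydrogenase active on retinol, had 193 normalized counts (192.5) in 4T1-Sca1+ replicate 3, against 277 to 291 in the others. Akr1b8 had 1214 in 4T1-Sca1- replicate 3, against 1003 to 1028. Without the library named, Rxrb stood at 0.34 and Adh7 at 1.40 on the log2 scale, both still called, and Akr1b8 at -0.12 with an adjusted p of 0.123 (edgeR), no longer called.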

How the results depend on the processing

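Of the tested members, 6 kept their direction and call in all 19 alternative fits. Rara lost its call with GC-corrected offsets (0.10, adjusted p 0.134) and in the DESeq2 Wald test (0.29, adjusted p 0.0775), over a range of 0.10 to 0.38, and Rxrb with GC-corrected offsets (0.00, adjusted p 0.955), over 0.00 to 0.34. Leaving out each library in turn changed no call of a member, and the smallest value was that of Rara, 0.19, without 4T1-Sca1+ replicate 3. The members called higher numbered 5 with GC-corrected offsets and 6 in the DESeq2 Wald test.

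Requiring a log2 fold change of 1 or more in size left 612 genes higher and 103 lower, 2 members higher and 0 lower, 3 supply and metabolism genes higher and 0 lower, 2 retinoic acid targets higher and 0 lower, 0 coregulators in either direction, and 1 RXR partner higher and 0 lower. With GC-corrected offsets, 5 coregulators were higher and 3 RXR partners were lower. On the deposited normalized table, where more genes were tested, 7 RXR partners were higher. The count of RXR partners that were lower ran from 1 to 2 when libraries were left out in turn, reaching 2 without 4T1-Sca1+ replicate 3 or without 4T1-Sca1- replicate 1, and was 2 without 4T1-Sca1+ replicate 3 and 4T1-Sca1- replicate 2, an alternative chosen after seeing the data.

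Signs turned in 3 other genes. Rdh13 was -0.0083 with DESeq2 size factors and in the DESeq2 Wald test, -0.0088 without a low-count filter and -0.0085 on the deposited table, and -0.0151 to 0.0349 when libraries were left out. Bco2 ran from -0.1823 to 0.0582 when libraries were left out. With GC-corrected offsets Dhrs4 was -0.0259. The cause of these changes was not tested.

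With replicate number as a block, 3605 genes were higher and 3452 lower, 7 members were higher and 1 was lower, and Rara stood at 0.29, with no call of a member changed. The deviations of same-numbered libraries correlated at 0.0957, -0.1498, -0.0339 and -0.0011. Over all combinations the highest value, 0.2776, joined 4T1-Sca1+ replicate 3 and 4T1-Sca1- replicate 2, in which GC-rich transcripts lay high. Since that shift enters the correlations, they cannot decide whether equal numbers mark pairs. Not every library correlated best with its own number. Counts near the floor (Rarb, Cyp26a1, Aldh1a2) limit what can be seen of these transcripts at this depth.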
